A study of Mus musculus with 24 samples.

Results

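Nuclear pore proteins and the carriers that move cargo through the pore were followed in the open chromatin of striatal neurons from mice with and without an expanded huntingtin gene. The set was chosen by gene name: it holds the deposited peaks named for a nucleoporin (Nup followed by a digit), an importin or exportin (Ipo or Xpo followed by a digit, all Kpna and Kpnb), or 1 of Tpr, Ran, Rangap1, Ranbp1, Ranbp2, Pom121 and Ndc1. It has 262 peaks of 45 genes, out of 147020 peaks in all, and 260 of them were tested, out of 146155 tested peaks. The other two, an intronic peak of Ipo9 and an intergenic peak of Ipo5 in L1 repeats, had too few counts. No peak carried the name Tpr or Ranbp1, so those genes were not analysed here as members. The set was selected with earlier results of these data known, among them the gain at 1 peak upstream of Nup160 in the comparison of Q140_Msh3KO with Q140. The value of that peak in that comparison is therefore given as a description, with no test.

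The assay was ATAC-seq, in which a transposase cuts and tags accessible DNA, on NeuN-positive (neuronal) nuclei sorted from the striatum of C57BL/6 mice at 12 months of age. Each of 4 genotypes had 6 animals, 3 female and 3 male. WT animals carried neither allele, Q140 animals were heterozygous for the Q140 knock-in of Htt, Msh3KO animals lacked Msh3 (a mismatch repair gene) on both alleles, and Q140_Msh3KO animals carried both changes. Htt with an expanded CAG repeat causes Huntington's disease, and the mismatch repair protein Msh3 takes part in the lengthening of that repeat in somatic cells. Repeat length in these animals was not analysed here.

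The nuclear pore complex is a ringed channel through the nuclear envelope. A Y-shaped scaffold complex coats both faces, an inner ring and membrane proteins anchor the pore, proteins rich in phenylalanine-glycine repeats fill the channel, and filaments and a basket project into the cytoplasm and the nucleus. Importins carry proteins with import signals inwards and exportins carry cargo outwards, and the GTPase Ran, with its activating protein Rangap1, gives the transport its direction. Neurons do not divide and keep many of their scaffold nucleoporins for a long time.

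The start regions of a few of these genes are shown for reference. Xpo6 was the only gene with a called difference at its start, Xpo1 and Kpnb1 had the most accessible starts, and the annotated start of Nup160 lay in no peak. The letters are the reference sequence upstream of the first annotated transcribed base, from RefSeq on GRCm38.p6, written 5′ to 3′ along the gene, and capitals mark a GC box (GGGCGG) or a CCAAT box (CCAAT) on either strand. The Nup160 stretch is chr2:90676965-90677214 on the plus strand, Xpo6 is chr7:126200540-126200751 on the minus strand, Xpo1 is chr11:23255791-23255908 on the plus strand and Kpnb1 is chr11:97187893-97188142 on the minus strand.
Nup160: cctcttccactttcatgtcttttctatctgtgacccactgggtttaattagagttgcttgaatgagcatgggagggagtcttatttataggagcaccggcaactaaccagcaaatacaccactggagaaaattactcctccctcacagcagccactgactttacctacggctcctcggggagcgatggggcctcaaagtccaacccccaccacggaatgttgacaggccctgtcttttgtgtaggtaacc
Xpo6: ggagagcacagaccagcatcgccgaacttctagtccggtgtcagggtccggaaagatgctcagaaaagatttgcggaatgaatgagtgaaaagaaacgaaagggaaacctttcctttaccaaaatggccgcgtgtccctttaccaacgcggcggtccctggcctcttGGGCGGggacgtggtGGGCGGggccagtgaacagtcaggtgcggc
Xpo1: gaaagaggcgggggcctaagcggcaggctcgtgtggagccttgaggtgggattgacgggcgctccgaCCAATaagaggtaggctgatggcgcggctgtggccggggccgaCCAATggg
Kpnb1: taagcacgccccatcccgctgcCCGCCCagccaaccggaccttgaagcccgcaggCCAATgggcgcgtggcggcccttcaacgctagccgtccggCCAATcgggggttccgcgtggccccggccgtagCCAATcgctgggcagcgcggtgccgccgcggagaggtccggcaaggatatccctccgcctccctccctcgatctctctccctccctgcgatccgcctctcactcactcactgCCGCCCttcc

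The Nup160 stretch held neither motif and 5 CpG dinucleotides, with a CpG observed to expected ratio of 0.325. Xpo6 held 2 GC boxes and 15 CpG, Xpo1 held 2 CCAAT boxes and 10 CpG, and Kpnb1 held 2 GC boxes, 3 CCAAT boxes and 28 CpG. The table of start windows (300 bases, from 250 before to 50 after a start) had an entry for 36 of the 45 genes, with 41 windows. A GC box lay in 27 of these windows (65.9%) and in 35.7% of all 32851 windows in the table, and a CCAAT box lay in 21 (51.2%) against 37.4%. The median CpG ratio was 0.933 in the 41 windows and 0.384 in all. All windows were counted whether or not a peak lay there, and some of the 41 overlap each other. These shares therefore do not compare like with like. A match of these letters is a description and not a binding site. For 31 of the 36 genes the window overlapped a peak of the gene's own name, for Nup188 and Nup88 it overlapped a peak named for a neighbour, and for Nup160, Kpna7 and Nup62cl it overlapped none.

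The peaks were spread unevenly. Nup35, a protein of the inner ring, had 33, Ipo11 had 27, Nup210 had 25, Nup93 had 19, Pom121 had 14 and Ipo5 had 13, while 24 genes had 3 or fewer. The name of a peak is that of the gene whose start is closest, and says nothing of the gene the peak acts on: 127 of the 262 lay inside the gene they are named for, 40 inside another protein-coding gene only, and 95 outside protein-coding genes. By the deposited classes 114 were intronic, 100 intergenic and 32 promoter peaks. Promoter peaks made up 12.2% of the set against 6.92% of all peaks. The median peak was 420.5 bases wide (396 in all peaks), 21.7 kb from the nearest start (29.0 kb in all) and held 30.5 counts per library (27 over all tested peaks).

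Total counts in peaks ranged from 4372251 to 11736557 per library. Promoters of all 3 neuronal and all 10 striatal projection neuron marker genes were open in every genotype, at means of 33.1 to 34.3 and 25.8 to 27.9 CPM per gene, where CPM is the usual depth-scaled count of a peak with edgeR's TMM factors. Of the glial and endothelial markers, promoter peaks were found for 1 of 5 astrocyte, 3 of 5 oligodendrocyte, 0 of 2 oligodendrocyte precursor, 0 of 5 microglial and 1 of 3 endothelial genes, and these averaged 3.04 CPM or less. Q140 F2, labelled female, had 1.47% of its counts on the X chromosome, against 1.72% to 1.94% in the other 11 female libraries and 1.49% to 1.59% in the 12 male libraries, and 1 count in the peaks of the Y-linked genes Uty, Ddx3y, Kdm5d and Eif2s3y, against 0 to 3 in the female and 152 to 303 in the male libraries. The 10 most counted peaks held 12.7% of all counts in Q140_Msh3KO M1 and between 2.52% and 6.82% elsewhere (23 libraries). Counts of calls are given with and without these 2 libraries for Q140 against WT and for Q140_Msh3KO against Q140. The same is done where the knock-in difference is compared between Msh3 backgrounds or between sexes, but not for the other comparisons. Each named call that was lost without these libraries is marked as such. The promoter peaks of Msh3 and Htt do not check the genotypes.

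A peak was called where the Benjamini-Hochberg adjusted p of edgeR's quasi-likelihood test over all 146155 tested peaks was under 0.05. Differences are log2 fold changes with their standard errors, positive where the genotype named first was higher. Litters are not given in the labels, so p-values measure the spread between these animals. The labels carry a number code whose first part is shared by 13 of the 24 animals, in 5 sets of 2 or 3 animals of 1 sex and mostly of different genotypes; its meaning is not given. A fit with this part of the code as a block changed the call of 0 of 48 named results. In bulk nuclei, fewer cells with an open site and less opening per cell cannot be told apart.

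Between Q140 and WT, 26 of the 260 tested peaks were called (10%), close to the 10.3% called over all tested peaks. Of these, 6 were higher (2.31%, against 4.20% over all peaks) and 20 were lower (7.69%, against 6.11%). The median log2 difference was -0.03 in the set and -0.01 over all peaks. The 26 calls fell on 10 of the 45 genes, and 17 of them belonged to Nup35, Nup160, Nup210 and Xpo6. Promoter peaks held 0 of the 26 calls, out of 32 tested, where the share over all promoter peaks was 3.33%. The other classes held 26 of 228 (11.4%), against 10.8% over all peaks of those classes. In 11 of the 26 (42.3%) the 6 Q140 animals did not overlap the 6 WT animals, against 44.6% of all called peaks, and both sets were picked on that comparison. Leaving out single libraries moved the count between 17 (without Q140 M2) and 28, and it was 22 without Q140 F2 and Q140_Msh3KO M1. Over all peaks, the fits without single libraries gave 11904 to 16024 calls, against 15066 with all libraries. The 4 calls lost without that pair of libraries were the Nup35 peak at 85.2 kb (edgeR adjusted p = 0.0523), the Nup210 peak at 119.6 kb (0.0757), the Ipo11 peak at 293.7 kb (0.128) and the Xpo6 peak at 11.7 kb upstream (0.104).

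By role, the Y complex had 0 higher and 3 lower of 20 peaks (15%), and the inner ring 1 and 7 of 55 (14.5%). The membrane proteins had 1 and 5 of 50 (12%), and the exportins 1 and 3 of 24 (16.7%). The importin beta family had 2 and 1 of 61 (4.92%), and the importin alphas 0 and 1 of 17 (5.88%). The cytoplasmic face had 1 and 0 of 11 (9.09%). Over all tested peaks 4.20% were higher and 6.11% lower, 10.3% together. Differences between roles were not tested. The central channel (4 peaks), the nuclear basket (13) and the Ran cycle (5) had 0 calls by edgeR. Each had 1 peak at an unadjusted p under 0.05, a level that 21.3% of all tested peaks reached.

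The Y complex calls were all at Nup160, a scaffold subunit of that complex. Its peak 7.0 kb upstream of the start (chr2:90669968-90670379), in an ID_B1 SINE repeat and overlapping the lncRNA gene Gm39871, ranged from 3.37 to 8.72 CPM in WT (median 6.54) and from 1.39 to 2.24 in Q140 (median 1.79). It ranged from 4.33 to 7.63 in Msh3KO (median 6.01) and from 3.32 to 7.19 in Q140_Msh3KO (median 4.94). All 6 Q140 animals lay below every animal of the other 3 genotypes. Q140 was 27.6% of the WT mean, a log2 difference of -1.84 ± 0.20 (edgeR adjusted p = 1.85e-08). This comparison shares the Q140 libraries with the one known beforehand.

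A second upstream peak, 9.7 kb before the start in the same lncRNA gene (chr2:90667176-90667871), fell with it: 8.35 to 12.3 in WT (median 10.7), 5.67 to 6.53 in Q140 (median 5.77), 6.20 to 13.5 in Msh3KO (median 11.1) and 8.26 to 11.8 in Q140_Msh3KO (median 9.51). Q140 did not overlap WT or Q140_Msh3KO, but its highest animal lay above the lowest of Msh3KO, and the difference from WT was -0.83 ± 0.14 (edgeR adjusted p = 6.65e-05). Another peak, in intron 13 of 36 (chr2:90699940-90700485), held 4.23 to 6.73 in WT and 2.26 to 3.82 in Q140, a difference of -0.93 ± 0.20 (edgeR adjusted p = 9.60e-04). The peak nearest to the Nup160 start on the other side, 2.1 kb into the gene in its 5′ UTR (chr2:90678826-90679851), was not called, at -0.07. The remaining 2 peaks, 16.6 and 24.6 kb upstream, were not called either, and neither was the promoter of the next gene, Fnbp4 (-0.03 ± 0.12).

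Nup35, which links the inner ring to the pore membrane, had 6 of its 33 peaks called, all lower in Q140. Of these, 5 lay beyond the end of the gene, in a stretch of 1390 kb before the next protein-coding gene, Zfp804a, and the sixth lay in intron 6 of 8. The 4 tested peaks from 85.2 to 107.4 kb downstream of the start were all among the calls. The ends of this stretch were set by the calls themselves. Peaks between these 4 and the gene and most of those farther out were not called, as the plot against distance shows.

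The Nup35 peak at 90.3 kb (chr2:80729285-80729840), in an RMER6C long terminal repeat of the ERVK class, had the largest difference in the set. It held 10.4 to 17.6 CPM in WT (median 14.3), 2.72 to 5.09 in Q140 (median 3.80), 8.41 to 15.6 in Msh3KO (median 13.4) and 7.24 to 10.9 in Q140_Msh3KO (median 8.79). The Q140 animals were below all 18 others. The difference from WT was -1.89 ± 0.16 (edgeR adjusted p = 8.03e-11), and it was -1.80 ± 0.21 in females and -2.01 ± 0.23 in males. Without Q140 F2 and Q140_Msh3KO M1 the value in females was -1.90 ± 0.24.

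At 107.4 kb (chr2:80746021-80747342), the broadest and most accessible of the 4, values were 21.8 to 40.0 in WT (median 29.9), 11.3 to 16.4 in Q140 (median 13.1), 16.4 to 39.2 in Msh3KO (median 30.8) and 19.6 to 31.5 in Q140_Msh3KO (median 27.2). The Q140 animals lay clear of WT and Q140_Msh3KO and just under the lowest Msh3KO animal, with a difference from WT of -1.16 ± 0.16 (edgeR adjusted p = 7.20e-06). The peak at 96.8 kb (chr2:80735794-80736278) held 3.16 to 5.62 in WT (median 4.52), 1.89 to 2.78 in Q140 (median 2.17), 3.68 to 5.59 in Msh3KO and 3.35 to 4.48 in Q140_Msh3KO, and fell by 0.98 ± 0.17 (edgeR adjusted p = 9.42e-05). WT and Q140 did not overlap there. The peak at 85.2 kb, inside the lncRNA gene Gm36282, had the smallest difference of the cluster, -0.45 ± 0.14 (edgeR adjusted p = 0.0325), and it lost its call in 9 of the 24 fits without 1 library (highest adjusted p 0.130).

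Outside this cluster, the Nup35 peak at 272.2 kb fell by 0.87 ± 0.22 (edgeR adjusted p = 0.00801) and the intron 6 peak by 0.57 ± 0.16 (0.0151). The intron call was lost without WT F3 or Q140 M2 (highest adjusted p 0.0690). The start of Nup35 itself had 14.7 ± 2.11 CPM in WT and 14.2 ± 1.55 in Q140 (SD, n = 6 each), a log2 difference of -0.05 ± 0.12. The promoters of the flanking genes Dusp19 (-0.25 ± 0.12) and Zfp804a (0.24 ± 0.11) were not called.

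**Figure D1:**
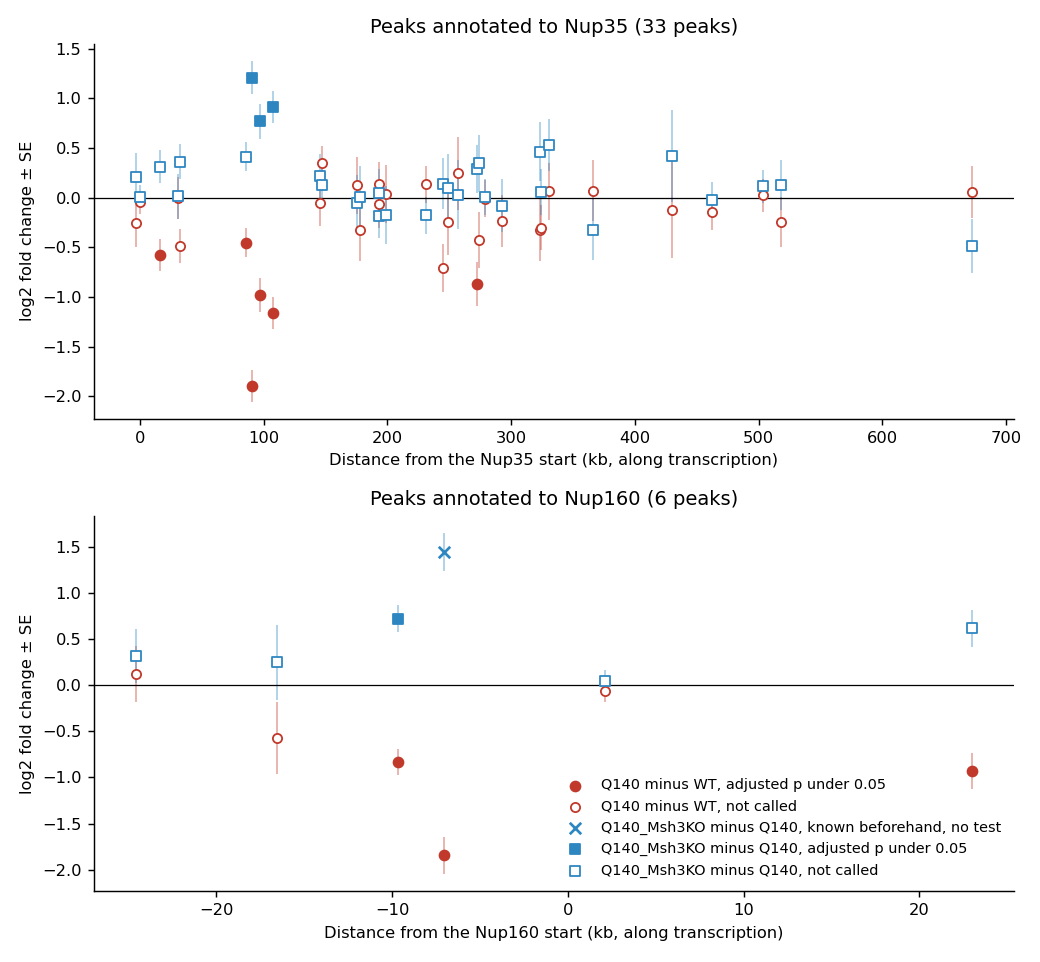
Log2 fold change ± SE of each tested peak named Nup35 (33) and Nup160 (6) against its distance from the gene start in kb, for Q140 minus WT (red circles) and Q140_Msh3KO minus Q140 (blue squares); filled symbols have an adjusted p under 0.05 over all peaks, and the cross marks the value that was known beforehand and has no test. The Nup35 peaks from 85.2 to 107.4 kb and the Nup160 peaks 7.0 and 9.7 kb upstream lie below 0 in red and above 0 in blue, while the Nup35 start peak and the Nup160 peak 2.1 kb into the gene lie near 0. Both comparisons use the Q140 libraries.

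The other inner ring calls were at Nup93, which joins the channel proteins to the ring. Its 2 called intronic peaks differed in opposite directions: the peak in intron 2 (chr8:94227150-94228137) ranged from 10.3 to 14.5 in WT and from 14.4 to 24.5 in Q140, a rise of 0.56 ± 0.13 (edgeR adjusted p = 0.00310). The peak in intron 4 (chr8:94263183-94263405) fell by 0.98 ± 0.21 (edgeR adjusted p = 9.17e-04), from a WT mean of 3.36 ± 0.760 to a Q140 mean of 1.70 ± 0.296 (SD, n = 6 each).

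Among the membrane proteins, Nup210 had 1 higher and 3 lower of 25 peaks. Intron 20 of Nup210 held calls of both signs: the peak at chr6:91047016-91047916 rose from 7.11 to 11.7 in WT (median 9.80) to 11.7 to 22.0 in Q140 (median 15.3), with 0.76 ± 0.15 (edgeR adjusted p = 2.64e-04), while the peak at chr6:91052851-91053498 fell by 0.67 ± 0.14 (8.30e-04). The largest Nup210 fall, 0.91 ± 0.17 (2.44e-04), was at 146.8 kb (chr6:90969593-90970388), inside the neighbouring gene Iqsec1, where WT held 15.4 to 23.6 and Q140 8.19 to 12.7 with no overlap. A Nup210 peak at 119.6 kb (-0.48 ± 0.15, edgeR adjusted p = 0.0307) lost its call in 7 fits without 1 library, and so did the 2 called peaks of Ndc1, a membrane anchor of the pore, in 15 and 10 such fits (-0.48 ± 0.15 and -0.42 ± 0.13, highest adjusted p 0.168 and 0.126). Both Ndc1 peaks lie in introns of Yipf1. All 14 Pom121 peaks, 11 of them in introns of the neighbour Hip1, were not called by edgeR.

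Nup214, a cytoplasmic nucleoporin that docks export factors, had the clearest gain. Its peak in intron 12 of 35 (chr2:31995801-31996592) held 7.02 to 11.2 CPM in WT (median 8.39), 14.5 to 20.4 in Q140 (median 17.0), 8.19 to 12.98 in Msh3KO (median 10.1) and 10.3 to 13.2 in Q140_Msh3KO (median 11.7). All 6 Q140 animals were above the other 18, and the Q140 mean was 198% of WT (0.99 ± 0.13, edgeR adjusted p = 7.52e-07). The Nup214 start was at 0.05 ± 0.11.

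**Figure D2:**
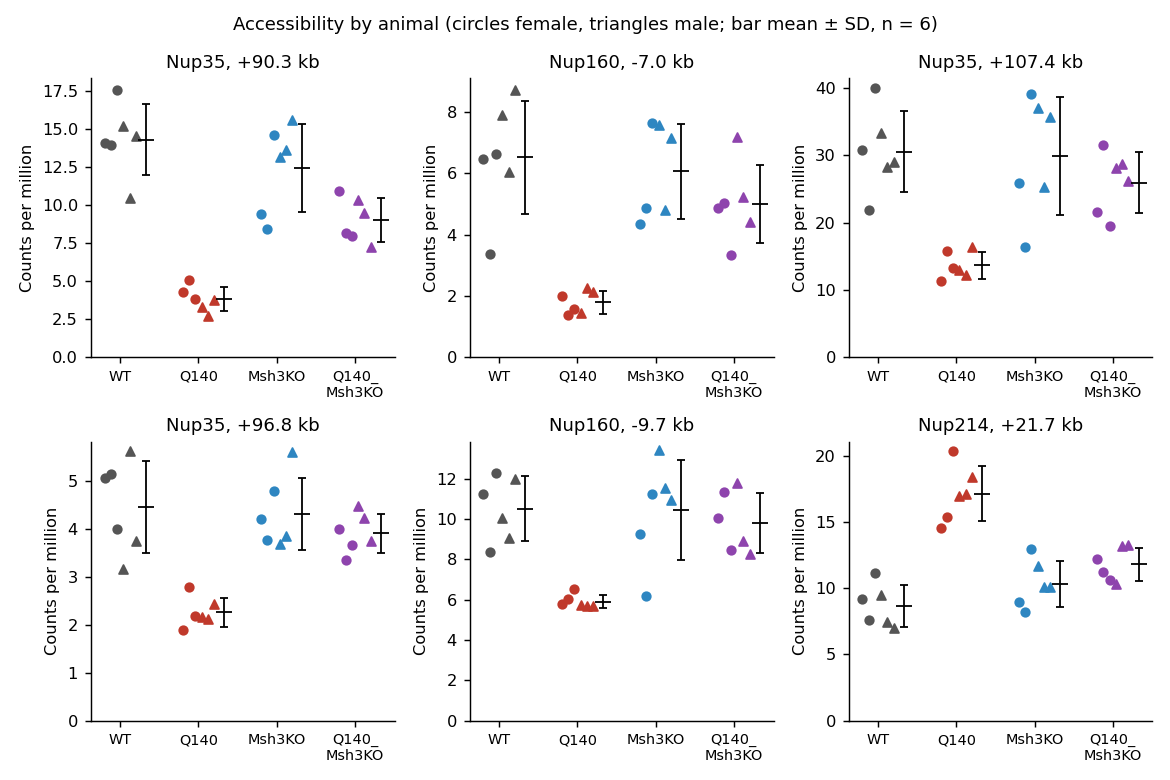
CPM in each animal for the 5 peaks called in both Q140 minus WT and Q140_Msh3KO minus Q140 and for the Nup160 peak at 7.0 kb, whose value in the second comparison was known beforehand and is a description, with circles for females, triangles for males and the bar for mean ± SD (n = 6 per genotype); titles give the distance from the start. The Q140 animals lie below WT and Q140_Msh3KO in the Nup35 and Nup160 panels and above them for Nup214. The Q140 animals also stand apart from Msh3KO except in the panel of Nup160 at 9.7 kb upstream. Of all 773 peaks called in Q140_Msh3KO minus Q140, 465 (60.2%) likewise had no overlap between those genotypes. The panels were picked on that comparison, so this separation is not read as a trait of the set.

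Of the carriers, Xpo6, which exports actin bound to profilin, had 4 called peaks of 10. Its start (chr7:126199668-126201125), which covers the stretch printed above, rose from 14.95 to 21.1 in WT (median 17.7) to 21.7 to 25.0 in Q140 (median 22.6), with no overlap and a difference of 0.34 ± 0.11 (edgeR adjusted p = 0.0390). The call was lost without WT F2, WT M1, WT M2, Q140 F2, Q140 M2 or Q140_Msh3KO F2 (highest adjusted p 0.0821). In contrast, peaks in introns 1 and 5 of Xpo6 fell by 0.93 ± 0.21 (edgeR adjusted p = 0.00182) and 0.65 ± 0.17 (0.00978), and the second of these was lost without WT F1 or WT F3 (highest adjusted p 0.0575). The peak 11.7 kb upstream of Xpo6 (-0.65 ± 0.22, edgeR adjusted p = 0.0487) kept its call in 7 of 33 alternatives.

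Ipo11, a carrier of the importin beta family, had 2 higher peaks. The one in intron 5 (chr13:106908388-106908802) held 0.790 to 2.70 in WT and 2.84 to 4.98 in Q140, with no overlap and a rise of 0.93 ± 0.22 (edgeR adjusted p = 0.00264). The other, 293.7 kb downstream of the start, was at the limit of the depth: WT animals held 0 to 1.29 CPM and Q140 animals 1.06 to 2.89 (1.18 ± 0.37, edgeR adjusted p = 0.0312, lost without WT F2, WT M1, WT M3, Q140 F2 or Q140 M2, highest adjusted p 0.154). All 27 Ipo11 peaks lie 14.0 to 14.6 Mb from Msh3 on chromosome 13, and linked DNA from the targeted Msh3 allele in the 2 Msh3-null genotypes was not tested.

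Kpnb1, the importin beta that carries classical cargo, had 1 lower peak of 9, 4.4 kb upstream (chr11:97192121-97192480), with 6.12 to 13.05 in WT and 3.82 to 6.97 in Q140 (-0.64 ± 0.17, edgeR adjusted p = 0.0105, lost without WT F2 at 0.0750). Kpna1, an importin alpha that binds nuclear localization signals, had 1 lower peak of 2, 1.6 kb upstream (-0.36 ± 0.12, edgeR adjusted p = 0.0386). It lies in an annotated ribosomal RNA repeat, where reads of other copies can align, and it lost its call in 15 fits without 1 library (highest adjusted p 0.215). The Nup35 peak at 90.3 kb and the Nup160 peak at 7.0 kb also lie in annotated repeats, and reads of other copies were not tested there. Repeats in general were no more common among calls: 5 of the 26 lay in an annotated repeat (19.2%), against 68 of the 260 tested peaks (26.2%).

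A peak within 1 kb of the start was found for 40 of the 45 genes; the other 5 were Nup160, Nup188, Nup210l, Nup88 and Kpna7. Per kb of peak width, the mean level over all animals was highest at Xpo1, the exporter of leucine-rich signals (66.8 CPM per kb), then Kpnb1 (45.2), Nup62 (40.2), Nup98 (39.8), Nup210 (38.7) and Nup107 (36.9). Nup62, Nup98 and Nup210 followed each other by less than the spread between animals. The lowest were Ipo7 (10.3) and the Nup62 relative Nup62cl (5.61).

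Of the 43 tested peaks within 1 kb of a start, 1 (Xpo6) was called in Q140 against WT (2.33%), close to the 3.33% over all peaks that near a start. Of the 40 start peaks, 1 per gene, 28 had a difference above 0 (70%), against 66.7% of the start peaks of 14234 genes. The median was 0.05 in the set and 0.06 over those genes, and the range in the set was -0.10 to 0.35. Over the 29 genes with a promoter-class peak, 0 were called by edgeR, the range was the same and the smallest adjusted p was 0.0640, at Ipo8 (0.35 ± 0.12). The peaks more than 1 kb from a start were called in 25 of 217 cases (11.5%), close to the 11.2% over all peaks that far from a start. On both measures the set was near the background.

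For the scaffold and channel genes, the start of Nup107 had 24.2 ± 3.74 CPM in WT and 26.4 ± 3.72 in Q140 (SD, n = 6 each; 0.12 ± 0.12). Nup98, whose gene encodes a channel protein and a Y complex subunit, had 56.2 ± 7.72 and 58.0 ± 5.12 (0.05 ± 0.10). Nup62, the phenylalanine-glycine protein of the central channel, had 47.2 ± 7.22 and 47.7 ± 5.16 (0.02 ± 0.11). These differences were smaller than the SD within either genotype.

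The basket protein Nup153 was at 24.9 ± 3.22 and 27.2 ± 2.90 (0.12 ± 0.12), and the membrane protein Pom121 at 13.4 ± 2.06 and 13.3 ± 1.23 (-0.02 ± 0.13). Xpo1 was at 90.1 ± 13.4 and 87.9 ± 11.2 (-0.03 ± 0.11), Kpnb1 at 83.1 ± 9.09 and 88.3 ± 7.51 (0.09 ± 0.11) and Kpna1 at 39.7 ± 6.69 and 37.8 ± 5.43 (-0.07 ± 0.12). None of the 5 was called by edgeR.

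In the Ran cycle, the start of Ran had 38.5 ± 3.36 CPM in WT and 45.4 ± 4.81 in Q140 (SD, n = 6 each), and without Msh3 it had 38.2 ± 4.39 (Msh3KO) and 39.1 ± 6.27 (Q140_Msh3KO). The Q140 difference of 0.24 ± 0.11 did not pass (edgeR adjusted p = 0.172). Rangap1, which makes Ran hydrolyse GTP, was at 38.2 ± 4.78 and 37.9 ± 5.08 (-0.01 ± 0.12). Ranbp2, the large filament protein that binds Ran and holds Rangap1 at the pore, was at 41.7 ± 4.76 and 43.0 ± 4.05 (0.04 ± 0.11).

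**Figure D3:**
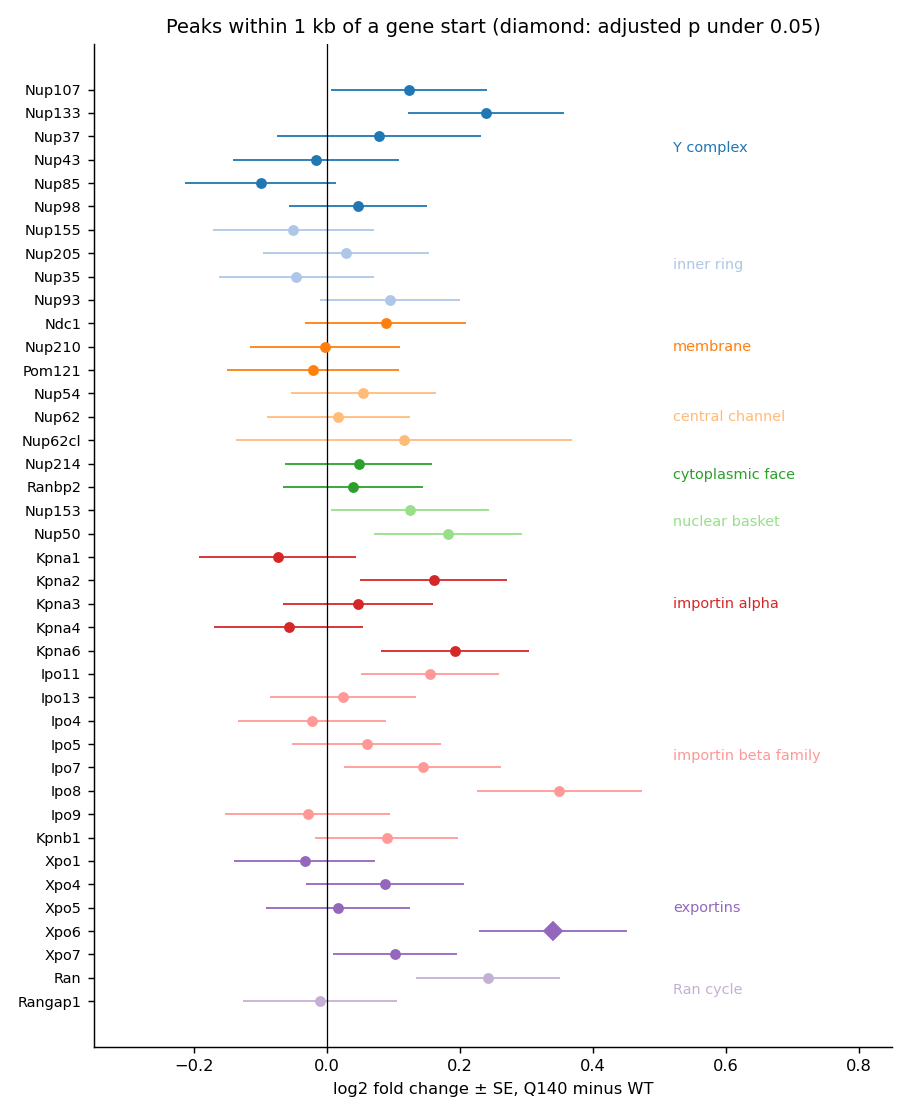
Log2 fold change ± SE, Q140 minus WT, of the start peak of 40 genes (within 1 kb, the peak of highest mean CPM where there were several), grouped by role. The diamond marks an adjusted p under 0.05 over all peaks. The 40 values lie between -0.10 and 0.35, with Xpo6 the only one called.

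Starts that share a peak with a neighbour were read from that peak. The peak over the Tpr start, named Odr4, was at -0.02 ± 0.11, the peak over the Ranbp1 start, named Trmt2a, at -0.01 ± 0.11, the peak over the Nup188 start, named Dolk, at 0.19 ± 0.12, and the peak over the Nup88 start, named Rpain, at 0.02 ± 0.12. Tpr forms the basket filaments and Ranbp1 helps Ran hydrolyse GTP. These 4 peaks were not called by edgeR.

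Loss of Msh3 alone gave 0 calls of 260 by edgeR, where 0.0130% of all tested peaks were called. At an unadjusted p under 0.05 there were 7 (2.69%), against 3.34% of all tested peaks, and 0 peaks of the set were called by DESeq2 or limma-voom. The smallest p values belonged to a satellite-repeat peak named Pom121 (chr5:135412956-135413275, -0.72 ± 0.23) and the Ipo11 intron 5 peak (0.67 ± 0.23), both with an edgeR adjusted p of 1.00.

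In the comparison of Q140_Msh3KO with Q140, which asks what loss of Msh3 does in the presence of the knock-in, 6 of 260 peaks were called (2.31%), against 0.529% over all tested peaks. Of the 6, 5 were higher (0.310% over all peaks) and 1 lower (0.219%). Without the Nup160 peak that was known beforehand there were 5, with 4 higher and 1 lower. All 6 were also among the 26 called between Q140 and WT, with the opposite sign, and the 2 comparisons share the Q140 libraries. The same overlap was not counted for the 773 peaks called over all tested peaks, so it is not read as a trait of the set. Nup35 and Nup160 hold 5 of the 6, and peaks of 1 locus are not independent of each other.

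The Nup35 peaks at 90.3, 107.4 and 96.8 kb were higher in Q140_Msh3KO than in Q140 by 1.21 ± 0.17, 0.91 ± 0.16 and 0.77 ± 0.18 (edgeR adjusted p = 3.56e-05, 0.00365 and 0.0242). The Nup160 peak at 9.7 kb was higher by 0.72 ± 0.15 (edgeR adjusted p = 0.00822), and the Nup160 peak at 7.0 kb by 1.44 ± 0.21. Nup214 was lower by 0.55 ± 0.13 (edgeR adjusted p = 0.0245). Without Q140 F2 and Q140_Msh3KO M1, 2 of the 5 calls other than the known Nup160 peak were left, the Nup35 peaks at 90.3 and 107.4 kb, while 199 peaks of all were called. The Nup35 peak at 96.8 kb (edgeR adjusted p = 0.0878), the Nup160 peak at 9.7 kb (0.0667) and the Nup214 peak (0.0939) lost theirs. The Nup35 peak at 96.8 kb also lost its call without Q140 F1, F3, M1 or M2 or Q140_Msh3KO F1, M1 or M2 (highest adjusted p 0.0878), and Nup214 without Q140 F3, M2 or M3 or Q140_Msh3KO F2, F3 or M1 (highest 0.0939).

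The knock-in on the Msh3-null background, Q140_Msh3KO against Msh3KO, uses libraries that the comparison of Q140 with WT does not. By edgeR 0 of 260 peaks were called there, against 0.116% over all tested peaks, 18 (6.92%) had an unadjusted p under 0.05, against 7.68% of all tested peaks, and DESeq2 and limma-voom also called 0. The smallest p values were at Nup35, for the peak at 272.2 kb (-0.77 ± 0.22, edgeR adjusted p = 0.180) and the peak at 90.3 kb (-0.51 ± 0.15, 0.189). Of the 26 peaks called between Q140 and WT, 24 had the same sign on the null background. All 26 were smaller there, with a median absolute difference of 0.24 against 0.80 between Q140 and WT. They were chosen on that last comparison, so a smaller size elsewhere is in part set by the choice. Signs and sizes were not counted in this way for the 15066 peaks called over all tested peaks, so these figures describe the 26 only.

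**Figure D4:**
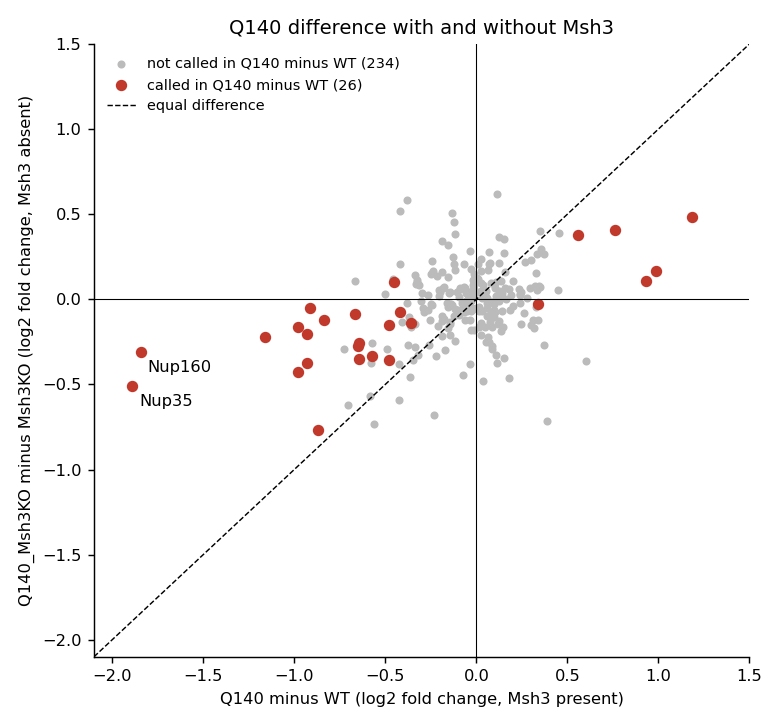
Log2 fold change of the knock-in with Msh3 present (x axis, Q140 minus WT) and absent (y axis, Q140_Msh3KO minus Msh3KO) for the 260 tested peaks; red points are the 26 called between Q140 and WT and the dashed line marks equal differences. The 26 red points lie nearer to 0 on the y axis than on the x axis, and the Nup35 peak at 90.3 kb and the Nup160 peak at 7.0 kb lie far off the line.

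The difference between the 2 backgrounds was tested as an interaction. It was called at 2 of 260 peaks, against 0.0226% over all tested peaks, and 1 of the 2 is the Nup160 peak at 7.0 kb. For the Nup35 peak at 90.3 kb the knock-in difference was more negative with Msh3 than without by 1.38 ± 0.22 (interaction -1.38, edgeR adjusted p = 0.00348), and this call held in all 33 alternatives (highest adjusted p 0.0198). For the Nup160 peak at 7.0 kb the value was -1.53 ± 0.27, which includes the difference known beforehand and is given as a description. It was -1.39 ± 0.28 without Q140 F2 and Q140_Msh3KO M1. At the other 24 peaks called between Q140 and WT the interaction did not pass, Nup214 among them (0.82 ± 0.19, edgeR adjusted p = 0.105).

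Q140_Msh3KO was also below WT at 1 peak of 260, against 0.525% over all tested peaks: the Nup35 peak at 90.3 kb, at 63.0% of the WT mean (-0.68 ± 0.15, edgeR adjusted p = 0.0177). That call was lost without WT F3, WT M1, WT M3, Q140_Msh3KO F3 or Q140_Msh3KO M3 (highest adjusted p 0.0993). The Nup160 peak at 7.0 kb was at 76.8% of WT and not called (-0.41 ± 0.18, edgeR adjusted p = 0.402).

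The knock-in difference did not differ between males and females at any tested peak by edgeR, with 0 of 260 in the set and 0% over all, and 9 of the 260 (3.46%) at an unadjusted p under 0.05, against 3.29% of all tested peaks. Without Q140 F2 and Q140_Msh3KO M1 there were also 0 calls in the set and over all peaks.

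Other genes of the pathway and of the nuclear envelope were counted the same way, against the 10.3% over all peaks. The list of transport and pore genes with other names (such as the importin Tnpo1, the mRNA export factor Gle1 and the pore and coat protein Sec13) had 3 higher and 6 lower of 106 peaks between Q140 and WT (8.49%), led by Gle1 (-1.10 ± 0.27), Ranbp3, which assists export (-1.01 ± 0.14), Tnpo1 (0.71 ± 0.24) and Sec13 (-0.58 ± 0.16). The nuclear envelope list had 4 higher and 6 lower of 181 (5.52%), led by the linker genes Sun1 (1.20 ± 0.24) and Syne1 (-1.13 ± 0.22 and 0.89 ± 0.16) and by Tmpo (-0.88 ± 0.14). Beside these, the 335 peaks of the 10 striatal projection neuron markers had 8 higher and 40 lower (14.3%), with a median of -0.14. The astrocyte markers had the same share, with 3 higher and 2 lower of 35 peaks (14.3%). Shares were 11.8% of 17 microglial, 10% of 10 endothelial, 6.35% of 63 oligodendrocyte and 6.06% of 132 general neuronal marker peaks. The 8 oligodendrocyte precursor peaks had 0 calls. The part of the marker differences in the pore and transport results was not tested. In Q140_Msh3KO against WT, 1 higher and 1 lower of the 106 transport and pore peaks were called (1.89%, against 0.525% over all tested peaks). They were the same Tnpo1 (1.28 ± 0.23) and Ranbp3 (-0.71 ± 0.14) peaks. The Tnpo1 peak (chr13:98944627-98945077) lies on the chromosome of Msh3 (promoter peak chr13:92354380-92355482). Linked DNA from the targeted Msh3 allele was not tested there.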

How the data were processed

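ATAC-seq was measured in NeuN-positive striatal nuclei of 24 mice. The authors deposited 1 table of raw read counts per peak and library. BWA, SAMtools, Picard, MACS2 and featureCounts on GRCm38 are named in the submitters' processing notes; versions and a cut-site shift were not given in the sources used here. Counts were tested with edgeR 4.0.16 (R 4.3.3): filterByExpr with a count minimum of 10, TMM scaling, robust glmQLFit with genotype and sex over all 24 libraries, and Benjamini-Hochberg adjustment at 0.05. The scripts were tested on simulated data. Alternatives used DESeq2 1.42.0, limma 3.58.1 (voom), other scalings, no filter, no sex term, a replicate block, a block by label code (added later) and left-out libraries. The 60 within-genotype pairs had a chi-square per peak of 1.33 to 8.84, and 0 pairs were identical. Members and lists were chosen with earlier results of these data known. Named peaks were promoter peaks of chosen genes, called peaks (at most the 15 largest per direction), the 2 of smallest p where none was called, and at most 4 called peaks of each other list. The 5 smallest lower calls, start peaks within 1 kb, shared starts and neighbouring promoters were added after their values were seen.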

Additional observations from a re-analysis of the deposited data

Results flagged for a closer look

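In the knock-in difference with Msh3 minus that without it, the Nup35 peak at 90.3 kb passed edgeR's interaction test (-1.38 on the log2 scale). The Nup160 peak 7.0 kb upstream had -1.53, which includes the gain known beforehand and is given as a description. Among 152 groups of 6 animals (38 named peaks in 4 genotypes), 4 (2.63%) had 1 animal far from the other 5 by Dixon's test, which chance gives in about 1 of 20 groups. At the Kpna1 start, Q140 F1 was lowest at 26.9 CPM, against 38.4 to 41.4 in the other Q140 animals. At the intron 4 peak of Nup93, WT F2 was lowest at 1.91, against 3.19 to 3.95 in the other WT animals. At the Ran start, Q140_Msh3KO F3 was highest at 51.5, against 35.3 to 38.6. At the Rangap1 start, Q140_Msh3KO F2 was lowest at 32.97, against 38.1 to 39.8.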

How the results depend on the processing

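Between Q140 and WT the count of called peaks in the set was 22 to 29 over the other scalings, filters, tests and designs and without the 2 libraries that stood apart, and 17 to 28 with single libraries left out. Leaving out single libraries gave 4 to 7 for Q140_Msh3KO against Q140, 0 to 1 for Q140_Msh3KO against WT and 1 to 4 for the interaction, and 0 for the other 2 comparisons. The totals over all peaks moved as well: 11904 to 16024 for Q140 against WT and 378 to 1104 for Q140_Msh3KO against Q140. They were 200 to 1078 for Q140_Msh3KO against WT and 8 to 150 for the interaction. For Msh3KO against WT they were 14 to 21, and for Q140_Msh3KO against Msh3KO 15 to 368. Restricting the count to promoter peaks gave 0 in each of these comparisons. Without Q140 F2 and Q140_Msh3KO M1 the count was 3 for Q140_Msh3KO against Q140 and 1 for the interaction. The interaction had 1 call with limma-voom and 4 with DESeq2; the cause was not tested. Over all peaks, the interaction had 33 calls by edgeR, 8 by limma-voom and 99 by DESeq2. With total count scaling the set had 7 higher and 18 lower peaks between Q140 and WT. The replicate block gave 27 calls between Q140 and WT, 7 between Q140_Msh3KO and Q140, 1 between Q140_Msh3KO and WT and 2 for the interaction, and it changed the call of 0 of 48 named results. Same-numbered animals of different genotypes correlated at -0.32 to 0.47 (36 pairs, median 0.06), against a median of -0.01 in the other pairs. Of 24 libraries, 10 matched best with their own number. These values do not settle whether equal numbers mark a shared batch. No label ties equal numbers together, so the numbers were left out of the main fit. Of 1152 values with 1 library left out, 115 lost their call and 0 reversed. The 1152 include named results that had no call to lose, such as uncalled start peaks. With the first part of the label code as a random block in limma-voom, chosen after seeing the data (consensus correlation 0.16 over 16 codes), the counts in the same order were 28, 7, 1 and 2, and 0 of 48 named results changed their call. Counts for Q140_Msh3KO against Q140 and for the interaction include the Nup160 peak known beforehand wherever it was called. Low counts limit narrow peaks such as the distal Ipo11 peak.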
